A study of Mus musculus with 8 samples.

Results

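Primitive streak, mesoderm and epithelial-mesenchymal transition (EMT) genes were followed in mouse embryonic stem (ES) cells depleted of either of a pair of histone demethylases. The set holds 38 genes out of 18193 genes measured and was named by symbol: 9 of the streak and early mesoderm, 6 of somite and lateral mesoderm, 7 cardiac, 8 of blood and vessel and 8 of EMT. Among probe sets annotated to a single gene, the one brightest on average across the arrays stood for its gene, and all 38 genes had one. The cells were male ES cells of strain 129S4/Svjae, kept with leukemia inhibitory factor, an additive that holds mouse ES cells undifferentiated. All of them received a lentivirus with a short hairpin RNA, then puromycin selection and some passages ahead of RNA extraction. The hairpin was directed against GFP in 3 control samples, against Jmjd2b in 3 samples and against Jmjd2c in 2 samples, and each sample was run on 1 array. Jmjd2b and Jmjd2c, also called Kdm4b and Kdm4c, remove methyl groups from histone H3. The labels give neither the number of hairpins per target nor whether the samples of a group are separate cultures, so a p-value here reflects the spread of these samples alone, and that spread may be technical.

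In the embryo, the primitive streak forms in the epiblast under Nodal, Wnt and BMP signals. Epiblast cells there lose their epithelial contacts, move inward and become mesoderm and endoderm. T-box and homeobox factors such as Eomes, Mixl1 and Evx1 mark the streak, and Mesp and Tbx6 factors mark the mesoderm that leaves it. The EMT of these cells is driven by repressors of the epithelial cadherin Cdh1 from the Snai, Zeb and Twist families. Undifferentiated ES cells hold most of these genes low, and they come on as the cells leave the naive state toward epiblast and germ layers.

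Streak genes carried the highest rises of the set in the Jmjd2b knockdown, and the promoters of the risen genes Eomes, Evx1, Gsc and Twist1 are printed here, since these 4 also ranked the 3 Jmjd2b knockdown arrays alike. The sequences are the 250 bases before the annotated start in RefSeq on build GRCm38.p6, 5′ to 3′ on the strand of the gene, and 24 of the 38 genes had such an entry. Capitals mark matches on either strand to any of 6 short motifs. The TATA box was searched as the letters TATAAA, the core bound by TCF/LEF factors as CTTTGA or, in a second form, as CTTTGT, the site bound by T-box factors as AGGTGTGA, the SMAD box as CAGAC and the E-box bound by ZEB and SNAIL factors as CACCTG.
Eomes: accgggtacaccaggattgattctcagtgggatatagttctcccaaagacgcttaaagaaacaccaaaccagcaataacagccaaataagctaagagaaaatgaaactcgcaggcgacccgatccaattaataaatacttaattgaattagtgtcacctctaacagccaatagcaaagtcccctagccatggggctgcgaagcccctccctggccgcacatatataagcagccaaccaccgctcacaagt
Evx1: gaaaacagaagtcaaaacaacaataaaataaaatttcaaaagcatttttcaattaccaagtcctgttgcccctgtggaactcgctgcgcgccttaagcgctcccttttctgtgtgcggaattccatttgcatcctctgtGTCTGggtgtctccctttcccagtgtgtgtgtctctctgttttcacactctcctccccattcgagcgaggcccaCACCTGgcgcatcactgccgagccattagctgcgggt
Gsc: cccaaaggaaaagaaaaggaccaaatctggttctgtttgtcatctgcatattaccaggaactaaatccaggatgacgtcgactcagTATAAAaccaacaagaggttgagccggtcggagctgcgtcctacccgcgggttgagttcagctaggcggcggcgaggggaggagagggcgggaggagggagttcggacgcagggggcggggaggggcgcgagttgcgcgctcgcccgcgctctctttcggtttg
Twist1: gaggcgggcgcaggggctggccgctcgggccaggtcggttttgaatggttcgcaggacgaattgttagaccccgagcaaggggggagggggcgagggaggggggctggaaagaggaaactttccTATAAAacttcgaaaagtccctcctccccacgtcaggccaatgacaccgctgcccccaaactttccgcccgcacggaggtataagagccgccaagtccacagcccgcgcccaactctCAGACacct
The Eomes stretch lies at chr9:118477939-118478188 on the plus strand and holds none of the motifs. The Evx1 stretch, at chr6:52313248-52313497 on the plus strand, holds the SMAD box on the reverse strand, 111 to 107 bases before the start, and the E-box 37 to 32 bases before it. The Gsc stretch, at chr12:104473237-104473486 on the minus strand, holds 1 TATA box, 164 to 159 bases before the start. The Twist1 stretch, at chr12:33957421-33957670 on the plus strand, holds a TATA box 126 to 121 bases and a SMAD box 9 to 5 bases before the start. Over all 32851 promoters of this length, 12.4% held the TATA box, 13.8% the first and 16.5% the second TCF/LEF form, 1.12% the T-box site, 42.2% the SMAD box and 17.2% the E-box. The 4 stretches had 46.4% (Eomes), 49.6% (Evx1), 59.2% (Gsc) and 62.4% (Twist1) G and C bases, beside a median of 52.4% over all promoters. They held 8, 10, 22 and 18 CpG pairs in the same order, beside a median of 6. No motif of the 6 was present in all 4 stretches.

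The targeted genes followed the labels. Kdm4b had a mean intensity of 468 ± 157 (SD, n = 3) in controls, 32.2 ± 16.8 (n = 3) in the Jmjd2b knockdown and 265 ± 28.4 (n = 2) in the Jmjd2c knockdown. Kdm4c had means of 1281 ± 63.2, 734 ± 76.3 and 306 ± 232 in the same order, and its values on the Jmjd2c knockdown arrays were 142 and 469. Array medians lay between 44.7 and 46.6 intensity units. The deposited values marked out 3 sets of arrays. Controls 1 and 2 and Jmjd2b knockdown array 2 (the first set) had 412 to 455 values at exactly 1. Control 3 and Jmjd2b knockdown array 1 (the second set) shared 0.386% of their values exactly, and the pairs among Jmjd2b knockdown array 3 and the 2 Jmjd2c arrays (the third set) shared 0.439% to 0.450%. Other pairs shared 0.0266% to 0.0710%. The third set has no control, so the Jmjd2c comparison with controls always crossed sets, and differences within a set are given beside the results. The actin ratio of 3' to 5' probe sets, which rises as RNA degrades, was 1.45 to 1.63 in controls, 1.31 to 1.42 after Jmjd2b knockdown and 1.43 to 1.48 after Jmjd2c knockdown. The same ratio for Gapdh overlapped between the groups, at 0.936 to 0.980, 0.937 to 0.987 and 0.943 to 0.987 in the same order. Of 10 ES cell markers 7 fell in the Jmjd2b knockdown and 3 in the Jmjd2c knockdown, and their summed intensity was 61500 to 63279 in controls, 43979 to 48791 and 50866 to 51914. In such bulk samples fewer cells of a type and less RNA per cell cannot be told apart, and the part of RNA quality and of the fall in ES cell markers in the changes below was not tested.

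Of the 38 genes, 9 rose and 5 fell when Jmjd2b was depleted. The genes that rose were Mixl1, Eomes, Gsc, Evx1, Foxc1, Isl1, Lmo2, Etv2 and Twist1, and those that fell were Mesp2, Gata2, Tal1, Pecam1 and Pdgfrb. Over all 18193 genes 11.6% rose and 12.9% fell at the same threshold, an adjusted p under 0.05 in limma. In the Jmjd2c knockdown 4 of the 38 rose (Evx1, Foxc1, Isl1 and Twist1) and 3 fell (Mesp2, Gata2 and Pdgfrb), beside 4.31% and 5.28% of all genes. The median log2 change of the 38 was 0.02 in the Jmjd2b knockdown and -0.01 in the Jmjd2c knockdown, and that of all genes was -0.03 and -0.02. The median of the set thus lay close to that of all genes in each knockdown, and the called genes went both ways. Log2 changes here are of intensity plus 16, which understates the change of dim genes, and 32 of the 38 had a mean at or under that of the median gene. For 19 of the 38 every group mean was below the lowest array median. With the array set as a block, 8 of the 38 rose and 3 fell in the Jmjd2b knockdown, and 2 rose (Evx1 and Mixl1) and 0 fell in the Jmjd2c knockdown (9 of the 38 had an unadjusted p under 0.05 there). Over all genes that fit called 3004 and 9, beside 4446 and 1745 without the block. In its Jmjd2c comparison 2643 of the 18193 genes had an unadjusted p under 0.05.

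**Figure D1:**
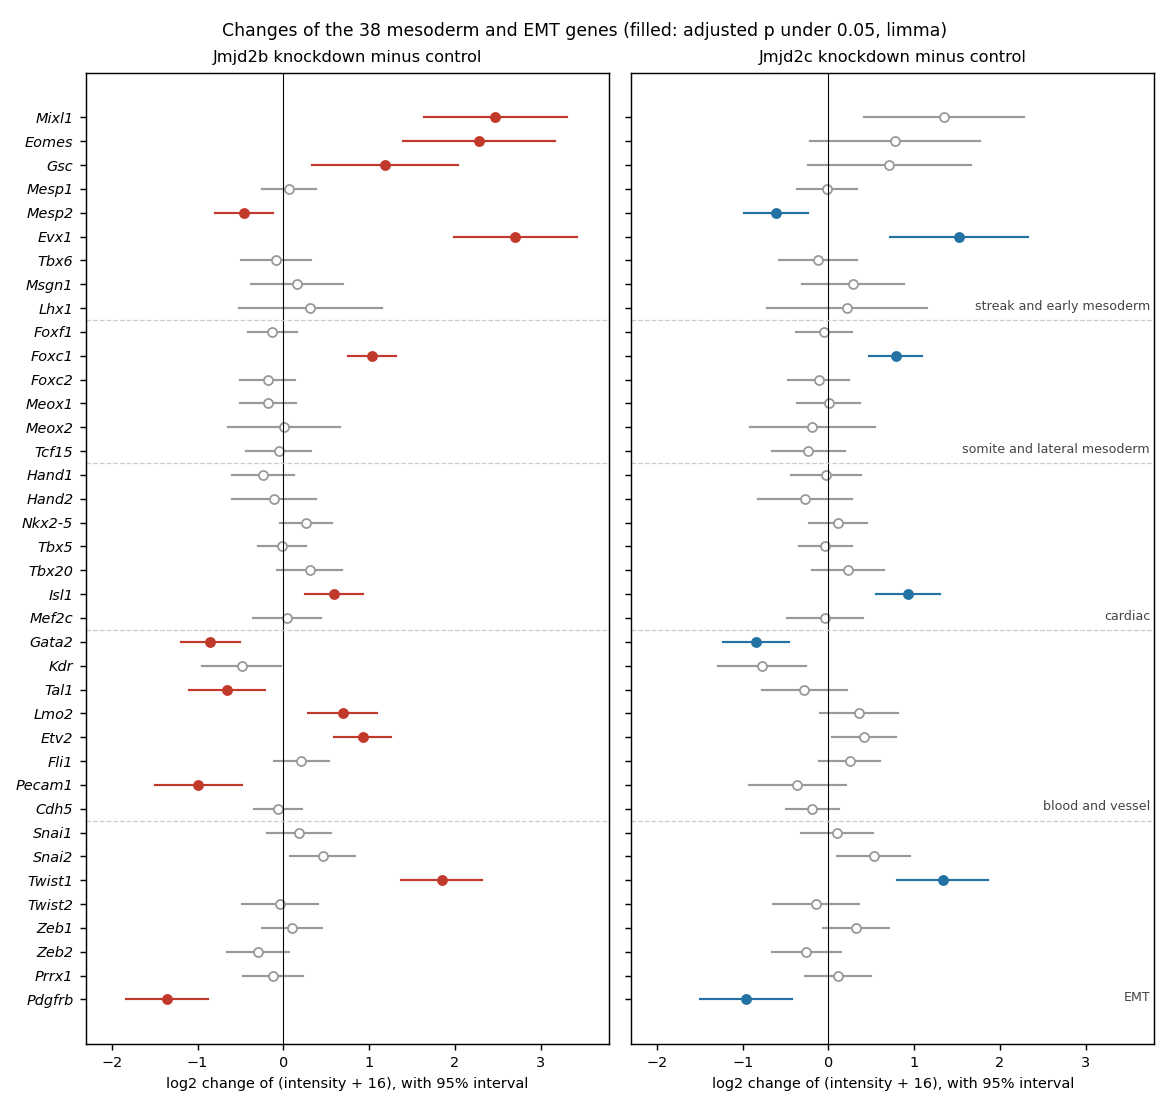
Log2 change of intensity plus 16 against control for each of the 38 genes, Jmjd2b knockdown on the left and Jmjd2c knockdown on the right, with 95% intervals from the fit. Filled points had an adjusted p under 0.05 (14 genes on the left, 7 on the right); the largest rises on the left, with 16 added, are Evx1 at 2.70, Mixl1 at 2.47 and Eomes at 2.28, and most of the somite and cardiac genes lie close to 0.

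Among the 9 streak and early mesoderm genes, Mixl1, Eomes, Gsc and Evx1 rose and Mesp2 fell in the Jmjd2b knockdown, with a median log2 change of 0.32. In the Jmjd2c knockdown Evx1 rose, Mesp2 fell and the median was 0.28. Mixl1 encodes a homeobox factor of the streak that directs mesoderm and endoderm. Its intensity was 14.5, 13.2 and 11.7 in controls, 176, 267 and 61.8 on the Jmjd2b knockdown arrays and 64.7 and 52.4 on the Jmjd2c knockdown arrays. Every knockdown array was thus above every control, and Jmjd2b knockdown array 3 stood at the level of the Jmjd2c arrays. The change was 2.47 ± 0.37 (SE) on Jmjd2b depletion (adjusted p = 0.0013) and 1.35 ± 0.42 in the Jmjd2c knockdown, where it missed the threshold (adjusted p = 0.073). Within the first and second array sets the Jmjd2b knockdown differed from control by 3.24 and 2.79.

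Eomes, a T-box factor needed for the EMT of the streak and for endoderm, was 235, 126 and 105 in controls. It reached 917, 1305 and 388 on the Jmjd2b knockdown arrays and 264 and 262 on the Jmjd2c knockdown arrays. The Jmjd2b values did not overlap the controls, and the Jmjd2c values lay just above the highest control. The change was 2.28 ± 0.40 on Jmjd2b depletion (adjusted p = 0.0027) and 0.78 ± 0.44 in the Jmjd2c knockdown (adjusted p = 0.33). A second Eomes probe set gave 2.12 ± 0.31 and 0.47 ± 0.34, and both probe sets rose in the Jmjd2b knockdown; the second was the brighter one in controls, with a mean of 169. Within the first and second array sets the Jmjd2b knockdown differed from control by 2.81 and 2.95.

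Evx1, a homeobox factor of the posterior streak, had the largest Jmjd2b change of the 38 genes at the 16 added here; with 64 added its change of 1.49 was below the 1.99 of Eomes. It was near the bottom of the scale in controls, at 6.23, 10.6 and 3.03. Its level was 156, 210 and 64.3 after Jmjd2b knockdown, and 52.1 and 44.7 after Jmjd2c knockdown. All 5 knockdown arrays were well clear of the 3 controls, and array 3 of the Jmjd2b knockdown was again the lowest of its group. The change was 2.70 ± 0.32 (adjusted p = 0.00038) in the Jmjd2b knockdown and 1.52 ± 0.36 (adjusted p = 0.029) in the Jmjd2c knockdown. The first and second array sets gave 3.22 and 3.17 for the Jmjd2b knockdown. The Jmjd2c call was lost without control 1 or control 3. Without 1 of these or 1 of the Jmjd2c knockdown arrays the change was 1.40 to 1.60. With 64 in place of 16 added to the intensity it was 0.67 (adjusted p = 0.12).

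Gsc, the homeobox factor of the organizer and anterior streak, was 19.9, 12.0 and 11.4 in controls, 79.8, 89.1 and 16.3 after Jmjd2b knockdown, and 27.6 and 39.9 after Jmjd2c knockdown. Arrays 1 and 2 of the Jmjd2b knockdown were high, while array 3 lay inside the range of the controls. The change was 1.19 ± 0.38 (adjusted p = 0.047) and 0.71 ± 0.43 (adjusted p = 0.36). The Jmjd2b call was lost on leaving out any 1 control, Jmjd2b knockdown array 1 or array 2, with changes of 0.88 to 1.31 and adjusted p of 0.079 to 0.18. With values averaged over probe sets in the fit over all genes it was lost too (1.19, adjusted p = 0.056). Mesp2, a factor that sets segment borders in the presomitic mesoderm, went the other way. It was 57.9, 58.0 and 41.0 in controls, 36.9, 28.6 and 34.9 after Jmjd2b knockdown, and 29.8 and 26.8 after Jmjd2c knockdown. All 3 controls were above all knockdown arrays, with a small distance between the lowest control and the highest knockdown array, and the 2 knockdowns overlapped. Its change was -0.46 ± 0.15 (adjusted p = 0.0496) and -0.61 ± 0.17 (adjusted p = 0.047). Leaving out control 1, control 2 or any Jmjd2b knockdown array ended the Jmjd2b call (-0.51 to -0.39, adjusted p 0.076 to 0.17). Leaving out any control or any Jmjd2b knockdown array ended the Jmjd2c call, with changes of -0.74 to -0.55. Within the first and second array sets the Jmjd2b differences were 1.73 and 1.81 for Gsc and -0.73 and -0.11 for Mesp2. In the fit with the replicate number as a block the adjusted p for Mesp2 was 0.063 in the Jmjd2b knockdown and 0.062 in the Jmjd2c knockdown.

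The other 4 genes of this group passed the test in neither knockdown. Mesp1, the factor of the first mesoderm to leave the streak, had mean intensities of 50.4 ± 4.75 in controls, 53.5 ± 4.24 on Jmjd2b depletion and 49.9 ± 10.5 on Jmjd2c depletion. Tbx6 and Msgn1, which mark presomitic mesoderm, had log2 differences of -0.09 ± 0.18 and 0.16 ± 0.24 in the Jmjd2b knockdown. Lhx1, a LIM homeobox factor of the anterior mesendoderm, was 21.2, 19.8 and 22.6 in controls, 45.8, 58.3 and 5.59 after Jmjd2b knockdown, and 26.6 and 27.8 after Jmjd2c knockdown. Arrays 1 and 2 of the Jmjd2b knockdown were above every control and array 3 below every control, and its log2 difference was 0.32 ± 0.37. It was called higher without Jmjd2b knockdown array 3 and with the array set as a block. A second Lhx1 probe set, brighter in controls with a mean of 28.8, had a difference of -0.18 ± 0.21. Beside the 4 genes that rose, of Mesp1, Mesp2, Tbx6 and Msgn1 1 fell and 3 did not pass. These genes were set apart after the calls were seen. Every group mean of Tbx6 and Msgn1 was below every array median, so no difference between streak and later mesoderm is read from them.

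**Figure D2:**
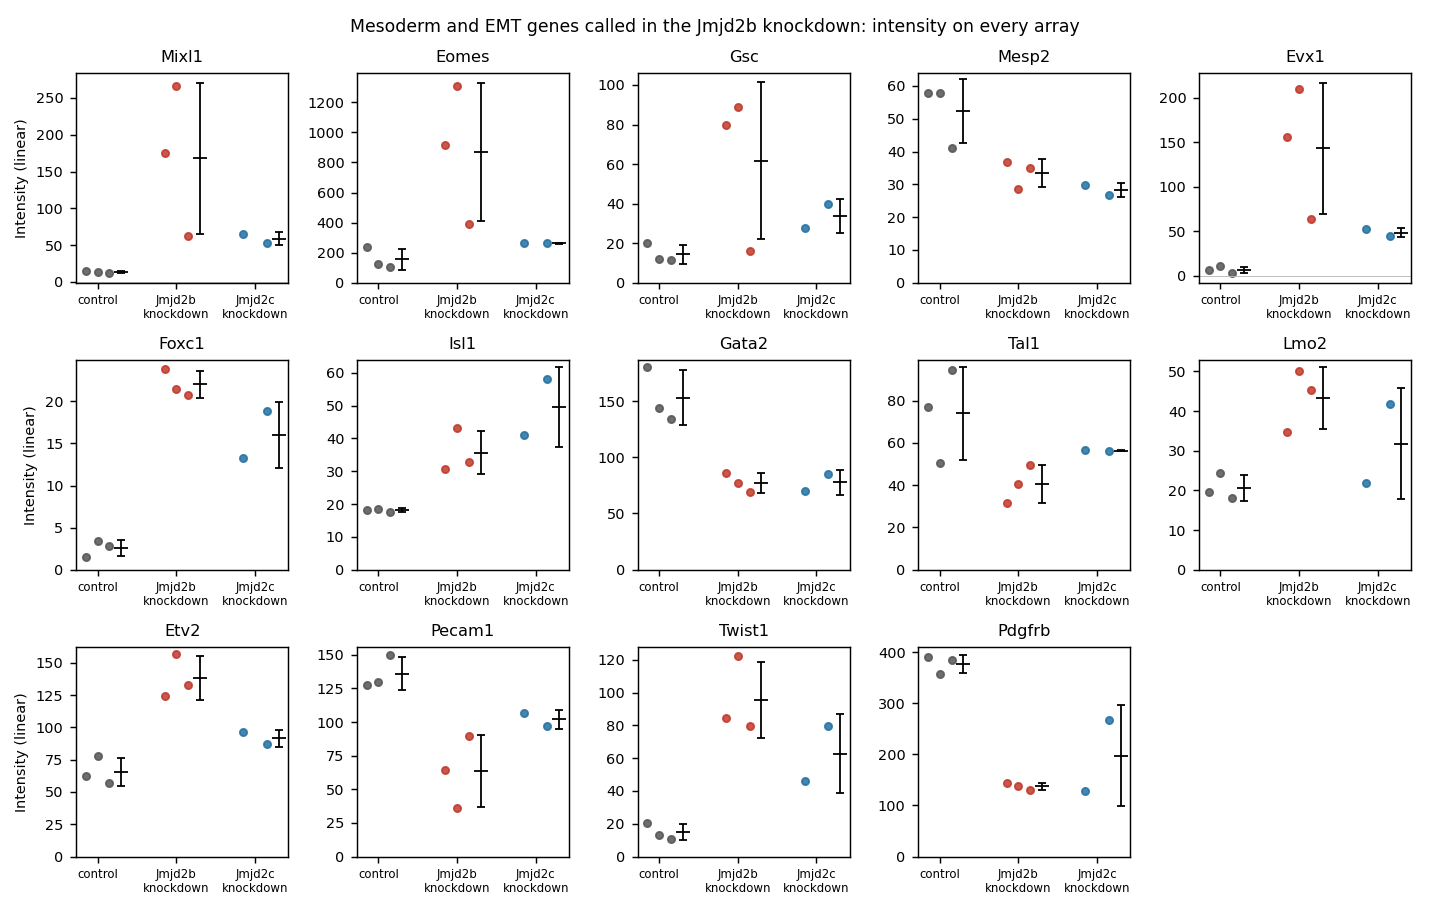
Intensity on each of the 8 arrays (points, linear scale, its own axis for each gene) for the 14 genes called in the Jmjd2b knockdown, with group mean and SD (bars) for 3 control, 3 Jmjd2b knockdown and 2 Jmjd2c knockdown arrays. Gsc is the gene whose Jmjd2b values overlap the controls, with one array at 16.3, and Jmjd2c values of Eomes (264 and 262) stand near the highest control (235).

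The Jmjd2b knockdown arrays differed among themselves in the streak genes. Array 2 was highest, array 1 next and array 3 lowest for Mixl1, Eomes, Gsc and Evx1, and also for Twist1 and for Lhx1, which did not pass the test. Array 3 stood at 23.2% of array 2 for Mixl1, 29.7% for Eomes, 18.3% for Gsc and 30.6% for Evx1. For the risen genes of other groups array 3 was nearer to array 2, at 96.9% for Foxc1, 90.2% for Lmo2, 84.5% for Etv2, 76.4% for Isl1 and 65.0% for Twist1. A low array 3 was not particular to the streak genes, as genes of the lists read further below show. The mesenchymal gene Cdh11 was 89.0, 110 and 18.6 on arrays 1, 2 and 3. Fgf8 and Axin2 of the signal list had the same order of arrays, whereas Sp5 and Cdx2 of that list had array 1 lowest. How common the order is over all genes was not tested. Kdm4b itself was lowest on array 3, at 17.0, with 50.3 on array 1 and 29.3 on array 2. The 3 arrays lie in 3 different array sets, so a difference between samples and one between sets cannot be told apart.

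**Figure D3:**
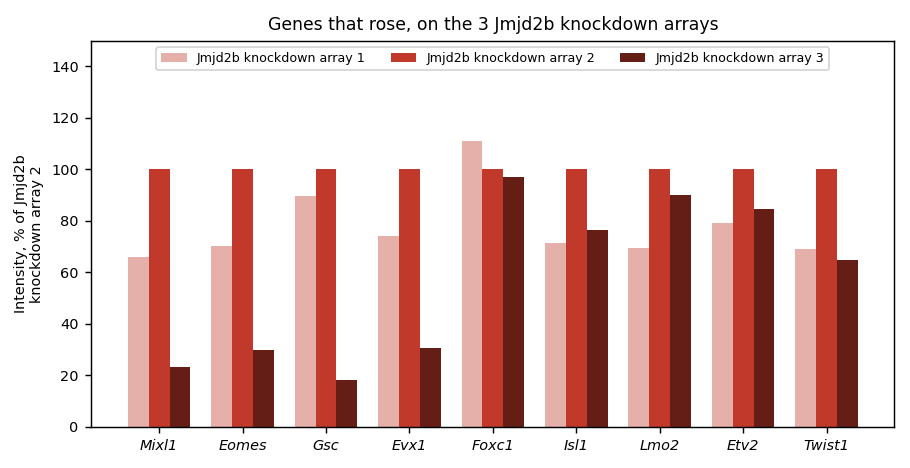
Intensity of the 9 genes that rose, on each Jmjd2b knockdown array as a percent of array 2 (bars, 1 sample each, no error bar possible). The array 3 bars of Mixl1, Eomes, Gsc and Evx1 lie at 18.3% to 30.6% and those of the other 5 genes at 65.0% to 96.9%.

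Of 6 somite and lateral mesoderm genes, 1 rose in each knockdown and none fell; the medians were -0.09 and -0.08. That gene was Foxc1, a forkhead factor of paraxial mesoderm and of vessels. Its intensity was 1.53, 3.35 and 2.78 in controls, 23.8, 21.5 and 20.8 after Jmjd2b knockdown, and 13.3 and 18.8 after Jmjd2c knockdown. The knockdown arrays were all above the controls and close together, but all 8 values were below the array medians. The change was 1.03 ± 0.12 (adjusted p = 0.00039) and 0.78 ± 0.14 (adjusted p = 0.0097), and the first and second array sets gave 1.02 and 1.08 for the Jmjd2b knockdown. A second Foxc1 probe set, with a control mean of 8.47, gave 0.15 ± 0.19 and -0.22 ± 0.21, so the rise rests on 1 of its 2 probe sets. The probe set used had a control mean of 2.55 and was the brighter of the pair over all arrays only through its knockdown values, so the choice of the brightest probe set favours the rise. With the probe set that was brightest in controls Foxc1 was called in neither knockdown. With the mean of probe sets in place of the brightest one the Jmjd2c change of Foxc1 was 0.28 (adjusted p = 0.28). Tcf15, a somite factor also known from ES cells that leave the naive state, was bright throughout, with means of 1275 ± 97.8, 1226 ± 77.1 and 1116 ± 414. In the Jmjd2b knockdown the log2 difference of Foxf1, a lateral plate factor, was -0.13 ± 0.13, that of Foxc2 was -0.18 ± 0.14, and those of the somite factors Meox1 and Meox2 were -0.18 ± 0.15 and 0.01 ± 0.29. None of these passed the test.

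Among 7 cardiac genes Isl1 rose in both knockdowns, and the other 6 passed the test in neither; the medians were 0.04 and -0.03. Isl1, a LIM homeobox factor of second heart field progenitors that is also made in other embryonic tissues, was 18.3, 18.6 and 17.5 in controls. It was 30.8, 43.1 and 32.9 after Jmjd2b knockdown, and 41.0 and 58.1 after Jmjd2c knockdown. The controls were tightly grouped and all knockdown arrays above them. The change was 0.59 ± 0.15 (adjusted p = 0.017) and 0.93 ± 0.17 (adjusted p = 0.010), and the array sets gave 0.78 and 0.48 for the Jmjd2b knockdown. Leaving out control 1, control 3 or Jmjd2b knockdown array 2 took the Jmjd2b call to an adjusted p of 0.051 to 0.077 with changes of 0.49 to 0.59. A second probe set of Isl1, brighter in controls with a mean of 27.4 beside 18.1, gave 0.39 ± 0.20 and 0.00 ± 0.23, so here too the probe set used was the brighter one only through its knockdown values and the choice favours the rise. With the probe set brightest in controls Isl1 was called in neither knockdown, and the mean of both gave a Jmjd2c change of 0.46 (adjusted p = 0.13).

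The core cardiac factors stayed at low intensity. Nkx2-5 had means of 37.1, 47.8 and 41.7 in controls, Jmjd2b and Jmjd2c knockdown, with a Jmjd2b change of 0.26 ± 0.14 (adjusted p = 0.20). Tbx5, Mef2c, Hand1 and Hand2 had Jmjd2b log2 differences of -0.02 ± 0.12, 0.04 ± 0.18, -0.24 ± 0.16 and -0.11 ± 0.22. Tbx20 had 0.31 ± 0.17 on its brightest probe set, and none of the 6 passed. In the fit over all probe sets, a dimmer one of Tbx20 had 0.89 ± 0.20 (adjusted p = 0.010) and a dimmer one of Mef2c 0.55 ± 0.16 (adjusted p = 0.038), with control means of 15.4 and 4.86. Beside these, 6 markers of cardiac muscle summed to 526 to 729 in controls, 423 to 1762 after Jmjd2b knockdown and 452 to 996 after Jmjd2c knockdown. Cardiac actin, Actc1, rose by 3.81 and 3.38 while the atrial light chain Myl7 fell by 2.18 and 2.07, and the other 4 markers did not pass. Their part in the Isl1 result was not tested.

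The 8 blood and vessel genes moved in both directions. In the Jmjd2b knockdown Etv2 and Lmo2 rose and Gata2, Tal1 and Pecam1 fell, with a median of -0.28, and in the Jmjd2c knockdown Gata2 alone passed the test, with a median of -0.24. Etv2, the ETS factor at the head of the haemangioblast programme, was 62.0, 77.5 and 56.7 in controls, 124, 157 and 133 after Jmjd2b knockdown, and 96.4 and 87.0 after Jmjd2c knockdown. The 3 groups did not overlap, with the Jmjd2c arrays between the others. The change was 0.92 ± 0.15 (adjusted p = 0.0018) and 0.41 ± 0.17 (adjusted p = 0.16), with 1.02 and 0.95 in the first and second array sets. Lmo2, a bridging protein that joins Tal1 and GATA factors on DNA, was 19.5, 24.4 and 18.2 in controls, 34.8, 50.1 and 45.2 after Jmjd2b knockdown, and 21.9 and 41.7 after Jmjd2c knockdown. The Jmjd2b arrays were above the controls, and 1 of the 2 Jmjd2c arrays was inside their range. The change was 0.69 ± 0.18 (adjusted p = 0.020) and 0.35 ± 0.20 (adjusted p = 0.33). Without control 1, control 3, Jmjd2b knockdown array 2 or array 3 the Jmjd2b change was 0.61 to 0.67 with an adjusted p of 0.058 to 0.085.

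Gata2, a zinc finger factor of blood stem cells, was 181, 144 and 134 in controls, 85.6, 76.9 and 68.7 after Jmjd2b knockdown, and 69.7 and 85.5 after Jmjd2c knockdown. Both knockdowns were at about the same level, below every control. The change was -0.85 ± 0.15 (adjusted p = 0.0032) and -0.85 ± 0.17 (adjusted p = 0.016), and a second probe set gave -0.85 ± 0.22 and -1.01 ± 0.24, both also past the threshold. The Jmjd2c call was lost without control 1 (-0.73, adjusted p = 0.054). Tal1, the bHLH factor that founds the blood lineage, was 76.9, 50.7 and 94.4 in controls, 31.4, 40.7 and 49.5 after Jmjd2b knockdown, and 56.5 and 56.4 after Jmjd2c knockdown. The highest Jmjd2b array, at 49.5, lay just under the lowest control, at 50.7. The change was -0.65 ± 0.20 (adjusted p = 0.038) and -0.28 ± 0.22 (adjusted p = 0.50). Without control 1, control 3, Jmjd2b knockdown array 1 or array 2 the Jmjd2b change was -0.66 to -0.49 with an adjusted p of 0.10 to 0.15.

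Pecam1, an adhesion receptor of endothelium that mouse ES cells also carry, was 128, 130 and 150 in controls, 64.6, 36.1 and 89.8 after Jmjd2b knockdown, and 107 and 97.1 after Jmjd2c knockdown. The order of the Jmjd2b arrays was the reverse of that in the streak genes: array 2 was lowest and array 3 highest. The change was -0.99 ± 0.23 (adjusted p = 0.011) and -0.36 ± 0.25 (adjusted p = 0.44), and without control 3 the Jmjd2b change was -0.93 (adjusted p = 0.051). Kdr, the main receptor for vascular endothelial growth factor, had means of 22.4 ± 0.79, 12.3 ± 8.93 and 6.495 ± 2.09, and its changes were -0.49 ± 0.21 (adjusted p = 0.12) and -0.77 ± 0.23 (adjusted p = 0.063). Fli1, an ETS factor, and Cdh5, the cadherin of endothelium, had log2 differences of 0.21 ± 0.14 and -0.06 ± 0.12 in the Jmjd2b knockdown and did not pass. Among 11 other markers of endothelium and blood, Flt1 rose (1.41) and Vwf fell (-1.18) in the Jmjd2b knockdown and none passed in the Jmjd2c knockdown. Their sum was 443 to 494 in controls, 468 to 559 and 408 to 491. The part of such cells in these results was not tested. Within the first and second array sets the Jmjd2b differences were -0.93 and -0.56 for Gata2, -0.47 and -1.22 for Tal1, -1.48 and -1.04 for Pecam1, and 0.80 and 0.57 for Lmo2, each of the same sign in both sets.

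Of the 8 EMT genes, Twist1 rose and Pdgfrb fell in both knockdowns, and the other 6 passed the test in neither on the probe sets chosen; the medians were 0.03 and 0.11. Twist1, a bHLH factor of cranial mesoderm and neural crest that represses Cdh1, was 20.3, 13.3 and 10.98 in controls. It was 84.7, 122 and 79.5 after Jmjd2b knockdown, and 45.9 and 79.8 after Jmjd2c knockdown. All knockdown arrays were above all controls, and the higher Jmjd2c array was level with the lowest Jmjd2b array. The change was 1.84 ± 0.21 (adjusted p = 0.00033) and 1.33 ± 0.24 (adjusted p = 0.0099), with 2.08 and 1.90 in the first and second array sets. Without control 3 the Jmjd2c change was 1.24 (adjusted p = 0.051).

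Pdgfrb, a receptor tyrosine kinase of mesenchymal and mural cells, was 390, 357 and 385 in controls, 144, 138 and 130 after Jmjd2b knockdown, and 128 and 267 after Jmjd2c knockdown. The Jmjd2b arrays were closely grouped far below the controls, and the Jmjd2c arrays lay apart, with array 1 level with the Jmjd2b arrays and array 2 between them and the controls. The change was -1.36 ± 0.21 (adjusted p = 0.0016) and -0.96 ± 0.24 (adjusted p = 0.034), and the first and second array sets gave -1.34 and -1.33. A dimmer probe set gave -0.61 ± 0.21 and -0.40 ± 0.23 and passed in neither knockdown. Without Jmjd2c knockdown array 1 the Jmjd2c change shrank to -0.47. The Jmjd2c change missed the threshold without any 1 control or without Jmjd2b knockdown array 1 or array 2. It was then -0.998 to -0.94, with an adjusted p of 0.058 to 0.12. With the replicate block it missed the threshold too (-0.97, adjusted p = 0.056).

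The Snai and Zeb repressors did not pass the test on their brightest probe sets. Snai1 had log2 differences of 0.18 ± 0.17 and 0.10 ± 0.19 in the Jmjd2b and Jmjd2c knockdown, and Zeb1 had 0.10 ± 0.15 and 0.32 ± 0.17. Snai2 came closest, at 0.46 ± 0.17 (adjusted p = 0.078) and 0.53 ± 0.19 (adjusted p = 0.12). Twist2 had -0.04 ± 0.20 and -0.15 ± 0.22, and Prrx1, a homeobox factor of limb mesenchyme, had -0.12 ± 0.16 and 0.11 ± 0.17. A dimmer Prrx1 probe set of 6 fell in the Jmjd2b knockdown by 0.45 ± 0.13 (adjusted p = 0.034, over all probe sets).

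The probe sets of Zeb2, a zinc finger repressor of Cdh1, disagreed. The brightest, 1458941_at, was 151, 138 and 120 in controls, 93.5, 107 and 125 after Jmjd2b knockdown, and 128 and 95.8 after Jmjd2c knockdown, with changes of -0.30 ± 0.16 and -0.26 ± 0.18 that did not pass. The probe set 1434298_at was 19.2, 15.5 and 13.9 in controls, 133, 141 and 165 after Jmjd2b knockdown, and 93.0 and 54.8 after Jmjd2c knockdown. This reading thus separated all 3 groups. It rose by 2.33 ± 0.18 (adjusted p = 5.3e-05, over all probe sets) and 1.45 ± 0.20 (adjusted p = 0.0043). The probe set 1422748_at rose by 1.76 ± 0.15 and 0.73 ± 0.17, both past the threshold, and 1454200_at by 1.13 ± 0.22 in the Jmjd2b knockdown, with 0.86 ± 0.24 (adjusted p = 0.061) in the Jmjd2c knockdown. The fifth, 1456389_at, had 0.22 ± 0.17 and 0.25 ± 0.19 and did not pass. So 3 of 5 Zeb2 probe sets rose in the Jmjd2b knockdown and 2 of 5 in the Jmjd2c knockdown, while the brightest did not. With the mean of each gene's probe sets in place of the brightest, Zeb2, Snai2 and Tbx20 were also called higher in the Jmjd2b knockdown, and Zeb2 in the Jmjd2c knockdown. The probe sets were compared after their values were seen.

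**Figure D4:**
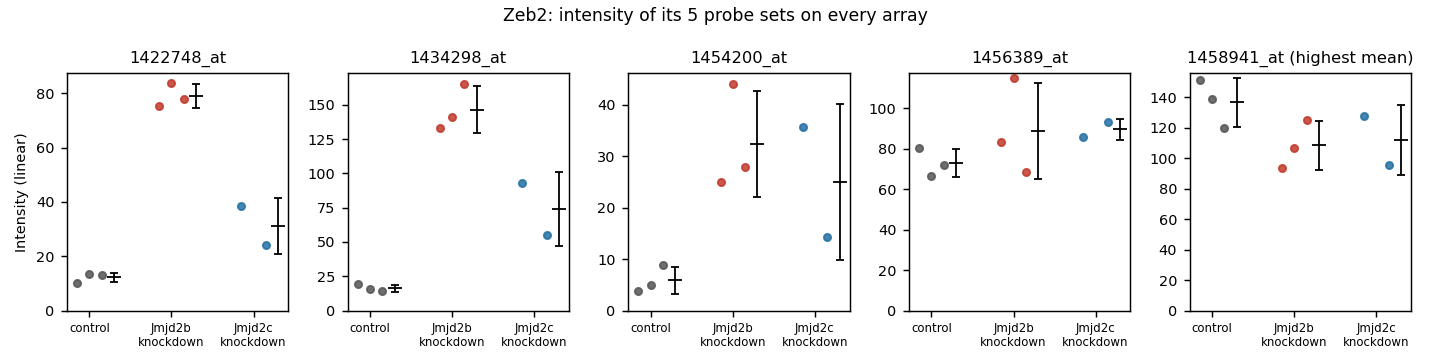
Intensity (linear scale, its own axis for each panel) of the 5 Zeb2 probe sets on the 8 arrays, as points with group mean and SD. In 1434298_at the controls lie at 13.9 to 19.2 and the Jmjd2b knockdown at 133 to 165, whereas in 1458941_at, the brightest, the groups overlap.

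Genes on either side of an EMT were set beside the 38. Of 10 mesenchymal genes 5 rose and 1 fell when Jmjd2b was depleted (median 0.70), and 1 rose when Jmjd2c was depleted (median 0.34). The neural cadherin Cdh2 rose from a mean of 51.4 to 849 and 784, by 3.68 ± 0.16 and 3.58 ± 0.18, and the other rises in the Jmjd2b knockdown were of Cdh11, Itgb1, Mmp14 and Sparc. Fibronectin, Fn1, fell by 0.58 ± 0.14 in the Jmjd2b knockdown. Of 13 epithelial genes 6 rose and none fell in the Jmjd2b knockdown (median 0.60), among them the claudin Cldn6 at 2.03 ± 0.37, the transcription factor Grhl2 at 1.71 ± 0.23, the splicing factor Esrp1 at 1.44 ± 0.38 and desmoplakin, Dsp, at 0.97 ± 0.13. In the Jmjd2c knockdown Grhl2 rose by 1.27 ± 0.26 and Cldn4 and Crb3 fell by 1.46 ± 0.25 and 0.63 ± 0.14 (median -0.07). The epithelial cadherin Cdh1 had means of 4774, 6721 and 4793, and its changes, 0.49 ± 0.23 and -0.07 ± 0.25, did not pass. Mesenchymal and epithelial genes thus both held rises in the Jmjd2b knockdown, and Cdh1, the target of the repressors above, did not fall past the threshold in either. Of 14 fibroblast markers, which feeder cells would carry, Col1a1 and S100a4 rose and Thy1 fell in the Jmjd2b knockdown, and 1 fell in the Jmjd2c knockdown. Their sum was 663 to 694 in controls, 714 to 730 and 636 to 698, and its part in the EMT results was not tested.

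The signals that induce the streak in the embryo were read beside these genes. Of 26 measured genes of the Nodal, Wnt, BMP and FGF pathways and their targets, 11 rose and 3 fell in the Jmjd2b knockdown (median 0.37), and 6 rose and 4 fell in the Jmjd2c knockdown (median 0.28). The ligand Fgf8 rose from 7.49 to 419 and 131, by 4.14 ± 0.25 and 2.65 ± 0.28. Wnt3, the ligand that starts the streak, rose by 2.31 ± 0.19 and 1.22 ± 0.21, and Nodal by 1.18 ± 0.15 and 0.67 ± 0.17. These 3 ligands thus rose in both knockdowns. Tdgf1 and Pcsk6 of the same list fell in both, by 0.16 ± 0.05 and 0.29 ± 0.06 for Tdgf1 and by 0.55 ± 0.14 and 0.71 ± 0.15 for Pcsk6. The list named 28 genes, and T, a T-box factor of the streak, and Tcf7 were not among the 26 measured. The Wnt target Sp5 rose by 4.74 ± 0.31 and 2.07 ± 0.35, whereas Axin2, another Wnt target, rose by 1.11 ± 0.26 in the Jmjd2b knockdown and had 0.08 ± 0.29 in the Jmjd2c knockdown. Cdx2, a caudal homeobox factor of the posterior embryo and of trophoblast, rose by 4.48 ± 0.20 and 0.97 ± 0.22. Between the knockdowns, Cdx2 differed by -3.52 (adjusted p = 0.00027), Sp5 by -2.67 (adjusted p = 0.018) and Fgf8 by -1.49 (adjusted p = 0.0495), each lower in the Jmjd2c knockdown. Fgf4, a ligand made by ES cells, fell by 1.86 ± 0.26 and 1.08 ± 0.30. Bmp4 fell in the Jmjd2c knockdown by 1.36 ± 0.36 (adjusted p = 0.042) and had -0.94 ± 0.32 on Jmjd2b depletion (adjusted p = 0.059). Markers of the other early lineages were mixed: of 8 trophoblast markers 2 rose and 3 fell, and of 10 primitive endoderm markers 2 rose and 2 fell in the Jmjd2b knockdown. In the Jmjd2c knockdown 1 of each list rose and 1 fell. The trophoblast list, which also holds Cdx2, summed to 3245 to 3905 in controls, 2936 to 3079 and 3166 to 4010. Most of that sum was Tfap2c, with means of 3219, 2358 and 3344, beside 4.24, 442 and 23.6 for Cdx2. It therefore does not follow the other trophoblast markers. The endoderm list summed to 626 to 738, 569 to 653 and 581 to 736. Its largest part was Lama1, with means of 414, 217 and 305, so the sum does not follow the other endoderm markers. In the Jmjd2b knockdown Foxa2 rose from 13.1 to 92.6 and Dab2 from 40.0 to 127, while Lama1 and Amn (92.8 to 47.8) fell. These lists were chosen with results of the same samples known and are not independent evidence of a direction.

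Both knockdowns were compared with the same 3 controls, so a shift of those controls moves both, and their values are set side by side only. Of the 14 genes called in the Jmjd2b knockdown, all 14 had the same sign in the Jmjd2c knockdown, 7 were called there too, and 12 had the smaller change there. The exceptions were Isl1 (0.59 in the Jmjd2b and 0.93 in the Jmjd2c knockdown) and Mesp2 (-0.46 and -0.61). The 14 were picked by their Jmjd2b change, and such a choice by itself favours a smaller change in the other knockdown. The same counts were not made over all genes, so they show nothing particular to this set. The direct comparison of the knockdowns, which leaves out the controls' levels, called 0 of the 38 genes in limma, beside 0.693% of all 18193 genes. An unadjusted p under 0.05 was found for 5 of the 38, beside 2377 of the 18193, which is about the same share. Its intervals were wide. For Jmjd2c minus Jmjd2b knockdown, Eomes differed by -1.51 (95% interval -2.50 to -0.52, adjusted p = 0.17), Evx1 by -1.18 (-1.98 to -0.38, adjusted p = 0.19) and Mixl1 by -1.12 (-2.05 to -0.19, adjusted p = 0.29). For Gata2 the difference was 0.01 (-0.38 to 0.39) and for Foxc1 -0.25 (-0.56 to 0.06). Whether the streak genes differ between the knockdowns was not resolved at this spread between arrays.

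The outcome of that comparison depended on the arrays and the model used. Without Jmjd2b knockdown array 3, Evx1 and Mixl1 were called lower in the Jmjd2c knockdown, 2 of the 38 genes beside 68 of all 18193. Leaving out a Jmjd2c knockdown array left 1 array in that group, so calls from such fits are not read here. With the replicate number as a block Eomes was called lower, beside 150 of all 18193 genes called. That block also pairs Jmjd2b with Jmjd2c knockdown arrays by number. Their same-numbered deviations from the group means correlated at only -0.0597 and 0.142. Within the third array set, which holds both Jmjd2c arrays and Jmjd2b knockdown array 3, the differences were -0.07 for Mixl1, -0.32 for Evx1, -0.53 for Eomes and 0.61 for Gsc. Beside the pooled values above, these within-set differences were smaller for the 3 genes with the lowest pooled values. Only 1 Jmjd2b knockdown array lies in that set, so its sample and the set cannot be told apart.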

How the data were processed

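RNA of 8 mouse ES cell samples had been measured on 1 oligonucleotide array each, after labelling as biotinylated cRNA per the labels' protocols. The authors deposited 1 intensity per probe set on a linear scale. Probe summary, background correction and scaling are not given in the sources used here, and the close array medians show only that some scaling had been applied. The array's platform annotation named the probe sets, of 45101 in all 34945 with exactly 1 symbol, and the identifiers of all 38 genes matched a RefSeq gene table (GRCm38.p6).

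Intensities were converted to log2(value + 16) without further normalization or filter. One model over the 3 groups and 8 arrays was fitted with limma (version 3.58.1, in R 4.3.3; lmFit, then eBayes with a trend), two-sided, with Benjamini-Hochberg adjustment over 18193 genes and a threshold of 0.05. The fit was tested on simulated data. Promoters were searched in Python 3.11.15 with pandas 2.3.3, and figures drawn with matplotlib 3.10.9. The number of arrays limits the precision.

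The 38 genes, the other gene lists and the markers were chosen with earlier results of these data known. All 38 genes are named; from the other lists, up to 4 with the smallest p in a comparison and some given by value are named. Alternatives were another pseudocount (1 or 64), quantile normalization, a filter on dim genes, other probe sets, fewer groups or arrays, and blocks for replicate number and array type, and, added after seeing the data, a block for array set and the probe set brightest in controls. Same-numbered control and Jmjd2b knockdown arrays deviated together from their group means (correlations 0.176, 0.111 and 0.116 across genes; -0.127 to 0.0167 for other numbers), so the numbers were taken to pair them, from the data alone, since the labels state no pairing. Those of the Jmjd2c knockdown and control correlated at 0.0408 and 0.0633. Between the 2 knockdowns same-numbered arrays correlated at -0.0597 and 0.142, and other numbers at -0.167 to 0.167. Correlations of this size thus also arose without a shared number. The replicate block used the numbers of all 3 groups.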

Additional observations from a re-analysis of the deposited data

How the results depend on the processing

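Counts here are of calls among the 38 genes, and the genes called are not always those of the main count. The Jmjd2b knockdown had 14 calls, beside 3 with only genes above the median gene. In that fit 6 of the 38 entered and 3727 of 9096 genes were called. The arrays with values floored at 1 are the first array set, with 1 Jmjd2b knockdown array. Those reaching below 1 hold 1 control. Fits within either had too few arrays to read a count of calls from. Leaving out 1 array gave 9 to 14 calls, lowest without control 1 or control 3, where 3299 and 2635 of all genes were called. Without Jmjd2b array 2 there were 11, 9 of them among the 14, with Snai2 and Kdr gained, beside 2748 of all genes called. The Jmjd2c knockdown had 7 calls, beside 2 above the median gene, 4 with array type as a block and 2 with array set as a block (Evx1 and, not among the 7, Mixl1). Over all genes those fits called 1827 of 9096, 1057 of 18193 and 9 of 18193. Leaving out 1 control or 1 Jmjd2b knockdown array gave 3 to 8 calls, lowest without control 1 or control 3, where 864 and 469 of all genes were called. The 8, without Jmjd2b array 3, held 6 of the 7, beside 1627 of all genes called. With the probe set brightest in controls, added after seeing the data, there were 12 and 5 calls, beside 4334 and 1681 of all 18193 genes. The Jmjd2c changes of Foxc1 (-0.22) and Isl1 (-0.0027) then reversed, the only called results to do so. Between the knockdowns the 0 calls became 0 to 2 on leaving out 1 control or 1 Jmjd2b knockdown array, and 1 with the replicate block. That block called 13 of the 38 genes in the Jmjd2b and 5 in the Jmjd2c knockdown, beside 4319 and 1391 of all genes. The pairing block changed no other call than those named for Mesp2, Pdgfrb and Eomes. The second array set alone could not be fitted, with 1 array a group. Eomes, Etv2, Evx1, Gata2, Mixl1, Pdgfrb and Twist1 kept their Jmjd2b call in each fit that used all array sets and entered it, 7 of 21 called results in the 2 comparisons with control. With 1 or 64 in place of 16 added to the intensity, the Jmjd2b change was 4.21 or 1.49 for Evx1, 3.35 or 1.48 for Mixl1, 2.40 or 1.99 for Eomes, 2.73 or 0.37 for Foxc1, 2.62 or 1.01 for Twist1 and 1.74 or 0.63 for Gsc. Most of the 38 genes are dim, which limits what can be called.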
